A study of Mus musculus with 8 samples.

Results

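10 genes that mark the identity of mouse embryonic stem (mES) cells besides the core transcription factors were followed in cells with and without Trim71. The genes are Dppa2, Dppa4, Dppa5a, Zfp42, Utf1, Tdh, Gdf3, Fbxo15, Tcl1 and L1td1, chosen by their symbols, and all 10 were among the 13558 transcripts measured. Poly(A) RNA was sequenced in 8 libraries, 4 of Trim71-/- cells (KO, labelled Trim-/-) and 4 of Trim71 fl/fl cells (WT, labelled Trimfl/fl). Trim71 binds RNA and acts as a ubiquitin ligase. The question was how the loss of Trim71 bears on the markers of the stem cell state.

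All libraries came from male C57BL/6 mES cells kept in fetal calf serum and LIF, the cytokine that holds mES cells undifferentiated, and enriched for the surface antigen SSEA-1 with magnetic beads. Cells of both genotypes carried a Cre recombinase fused to a modified estrogen receptor at the ubiquitous Rosa26 locus and loxP sites around the last Trim71 exon. Per the labels, KO cells were made from the WT cells with 500 nM 4-hydroxytamoxifen for 2 days and kept for at least 7 more days. The study's methods state a lower dose and a solvent control, so the exact dose and the vehicle of these WT libraries remain uncertain. KO replicates 1, 2 and 3 were of clone E3 and of days 2, 3 and 4, and KO replicate 4 was of clone 1 and day 5. WT replicates 1 and 4 were of clone 1 and of days 1 and 5, and WT replicates 2 and 3 were of clone E3 and of days 3 and 4. Days 3, 4 and 5 thus had 1 library of either genotype from the same clone. With 2 clones in all, p-values measure the spread between these libraries, and fewer cells expressing a gene cannot be told apart from less RNA per cell.

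Pluripotent cells are held in their state by a circuit of transcription factors around Oct4, Sox2 and Nanog. The genes described here lie around that circuit: they are used as markers of the undifferentiated state because they are active in mES cells and fall silent as cells differentiate, and several are direct targets of the core factors. They act at many levels, in chromatin (Dppa2, Dppa4, Utf1), as a zinc finger protein (Zfp42, also known as Rex1), at RNA (Dppa5a, L1td1), in metabolism (Tdh), in signalling (Gdf3, Tcl1) and in ubiquitin ligase complexes (Fbxo15).

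The deposited values are normalized read counts. Whole reads behind them could be recovered and came to 7516612 to 27745282 per library, with 174 to 51199 reads for each of the 10 genes in each library, so counting error was small beside the spread between libraries. Trim71 itself had 568.3 ± 249 normalized counts in KO against 2523 ± 367 in WT (SD, n = 4), with no overlap. Its KO reads can come from the exons that were not deleted. The ES cell factors Pou5f1, Nanog, Sox2 and Esrrb were all abundant, and 0 of these 4 had an unadjusted p under 0.05. Libraries differed in a trend with the GC content of the transcript: across 12853 genes, which are not replicates, the Spearman correlation of a library's deviation from the mean with GC content was -0.44, -0.10, 0.68 and 0.17 over KO replicates 1 to 4 and -0.13, -0.41, 0.07 and -0.31 over WT replicates 1 to 4. The KO library had the higher value on each of days 3, 4 and 5, so the comparisons were also run with this trend removed from each library.

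In KO, Tcl1 stood at 57.1% and Gdf3 at 77.2% of the WT mean without overlap of the libraries, Fbxo15 at 60.9% and L1td1 at 74.4% with overlap, and Utf1 at 128.3%. The means of the other 5 genes were at 91.4% to 105.8% of WT. Genotypes were compared with limma on log2(normalized count + 1) with a term for the clone. To pass the fold change criterion, a transcript had to differ by 1.5-fold or more with an unadjusted p below 0.05. Of the 10 genes, 1 passed it, Tcl1, which was lower in KO. Of all transcripts 4.25% passed, and 2.49% passed as lower in KO. At an unadjusted p under 0.05 stood 2 of the 10 genes, Tcl1 and Gdf3, against 9.09% of all transcripts. After Benjamini-Hochberg adjustment over all transcripts 0 of the 10 genes and 0.0% of all transcripts had an adjusted p under 0.05 by limma. The median log2 fold change was -0.04 over the 10 genes and -0.00036 over all transcripts, and 5 of the 10 genes had a positive and 5 a negative value. Exact two-sided permutation tests of the mean log2 difference over the 70 assignments of the libraries gave p = 0.0286, the smallest they can give, for Tcl1 and Gdf3. Every transcript without overlap of the libraries gets this p, and 10.1% of all transcripts had no overlap. The assignments also ignored clone and day. Over the other 8 genes, not adjusted for their number, the exact p ran from 0.0857 for Fbxo15 to 0.971 for Zfp42.

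**Figure D1:**
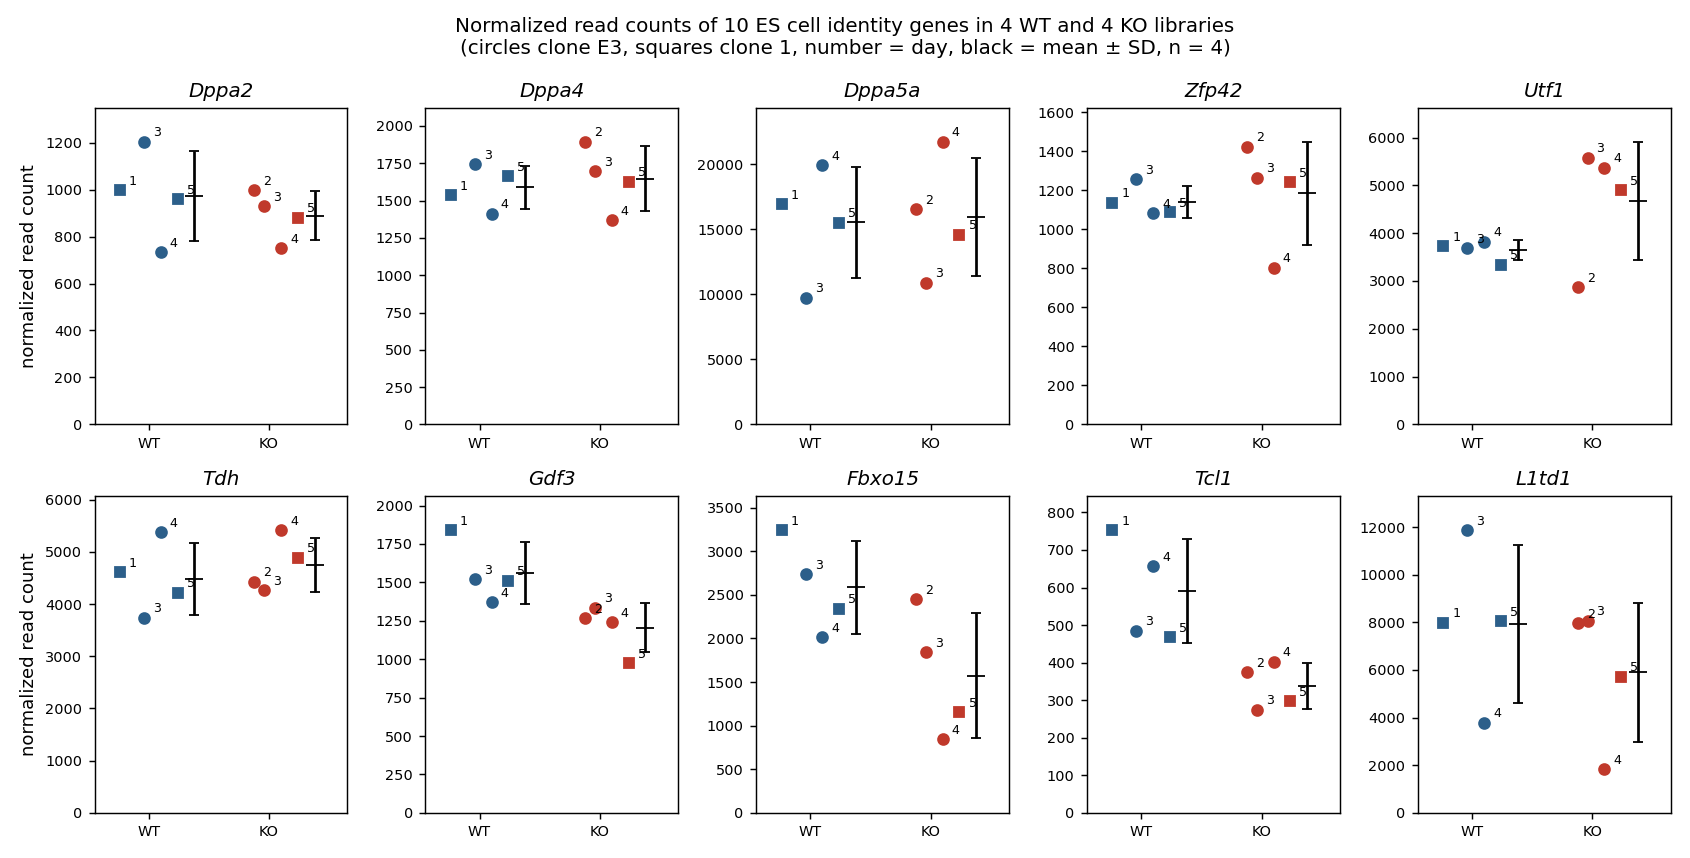
Normalized read counts (y axes, starting at 0) of the 10 genes in each library, WT in blue and KO in red, circles for clone E3 and squares for clone 1, numbers for the day and black bars for the mean ± SD of 4 libraries. Tcl1 and Gdf3 are the 2 genes whose genotypes do not overlap, and L1td1 is lowest in both libraries of day 4.

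Because the labels give the day, the genotypes were also compared within days 3, 4 and 5, with day as a block and 6 libraries. The labels do not say what the day counts, so what the libraries of a day share besides the clone is not known. In this fit 3 of the 10 genes passed the criterion, Tcl1, Fbxo15 and L1td1, all lower in KO, against 7.49% of all transcripts. Utf1 was higher in KO and stood just under the 1.5-fold limit, which brought the genes with an unadjusted p under 0.05 to 4, against 19.2% of all transcripts. The smallest adjusted p in this fit was 0.199 over all transcripts. With the GC trend removed as well, Tcl1, Fbxo15 and L1td1 passed again and Utf1 was no longer at an unadjusted p under 0.05. Of the 12853 transcripts with a GC content 5.04% passed in that fit, and 4.47% over 8 libraries with the trend removed, where Fbxo15 passed beside Tcl1.

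Tcl1 encodes a small protein that binds the kinase Akt and raises its activity, and it supports the self-renewal of mES cells. The gene lies at 105216750 to 105222793 of chromosome 12 (mm10, minus strand) and its transcript has 4 exons. It was measured at 374, 274, 403 and 298 normalized counts over KO replicates 1 to 4 and at 753, 485, 657 and 468 over WT replicates 1 to 4. The highest KO library was below the lowest WT library; no overlap in either direction was the case for 10.1% of all transcripts. The means were 337.4 ± 61.1 in KO and 591 ± 138 in WT (SD, n = 4), a log2 fold change of -0.81 (SE 0.22, 95% confidence interval -1.33 to -0.29, limma adjusted p = 0.452).

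On each day Tcl1 was lower in KO, at 56.5%, 61.3% and 63.6% of WT on days 3, 4 and 5. In the fit with day as a block it was -0.73 on the log2 scale (limma adjusted p = 0.199). Without KO replicate 4, which alone among the KO libraries is of clone 1, the value was -0.71 and the unadjusted p was just over 0.05, so Tcl1 did not pass the criterion. The authors had subtracted a difference between the clones, and with this undone the genotypes overlapped over all libraries (clone 1 minus E3 on the log2 scale -0.51), but not within either clone. In that fit Tcl1 had a log2 fold change of -0.81 (limma adjusted p = 0.43). Without the GC trend it was -0.83 over 8 libraries and -0.76 within days.

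The 250 bases of the reference genome before the RefSeq start of Tcl1, the gene that passed in both fits, are shown with those of Zfp42, in whose window motif matches lay. Sequences are from RefSeq (GRCm38.p6), and windows are reported on for 4 of the 10 genes, Tcl1, Zfp42, Utf1 and L1td1. Both strands were searched for the octamer ATGCAAAT bound by Oct4-type factors, the Sox motif CATTGT, the Klf motif GGGTGTGG and the Esrrb motif AAGGTCA, and matches are in capitals. The Tcl1 window is chr12:105222738-105222987 and the Zfp42 window chr8:43307010-43307259, both on the minus strand and written 5′ to 3′ as the gene is read. The gene coordinates given here are the GENCODE spans over all transcripts of a gene, and for Tcl1 a longer transcript makes that span reach into the window.
Tcl1: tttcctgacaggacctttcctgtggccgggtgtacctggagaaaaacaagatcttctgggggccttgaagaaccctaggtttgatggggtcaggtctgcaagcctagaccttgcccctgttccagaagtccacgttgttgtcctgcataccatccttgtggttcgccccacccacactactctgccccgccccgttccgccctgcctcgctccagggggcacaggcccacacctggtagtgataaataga
Zfp42: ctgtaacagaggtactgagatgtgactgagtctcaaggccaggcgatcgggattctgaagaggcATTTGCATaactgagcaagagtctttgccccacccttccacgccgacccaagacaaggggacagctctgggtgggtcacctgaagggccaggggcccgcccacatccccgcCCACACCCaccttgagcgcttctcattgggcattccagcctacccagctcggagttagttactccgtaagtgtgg

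The Zfp42 window held the octamer at -186 to -179 and the Klf motif at -75 to -68 from the start, both read on the opposite strand. These letters were in 1.60% (octamer) and 3.20% (Klf) of 32851 windows of this length. The Sox and Esrrb letters, in 10.7% and 4.08% of windows, had no match in the Zfp42 window, and none of the 4 motifs matched in the windows of Tcl1, Utf1 and L1td1. A match describes the letters only.

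Fbxo15 encodes an F-box protein, the part of a ubiquitin ligase that binds substrates, and is a target of Oct4 and Sox2 best known as a reporter in the reprogramming of fibroblasts. It lies at 84934782 to 84981473 of chromosome 18 (mm10, plus strand). It was measured at 2452, 1840, 846 and 1158 normalized counts over KO replicates 1 to 4 and at 3245, 2737, 2018 and 2342 over WT replicates 1 to 4. Only KO replicate 1, of day 2, lay within the range of the WT libraries.

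Means for Fbxo15 were 1574 ± 718 in KO and 2586 ± 529 in WT (SD, n = 4), a log2 fold change of -0.83 (SE 0.36, 95% confidence interval -1.68 to 0.03, limma adjusted p = 0.557). KO stood at 67.2%, 41.9% and 49.4% of WT on days 3, 4 and 5. Blocking by day gave -0.95 (SE 0.17, limma adjusted p = 0.202), and with single libraries left out in the fit with the clone term the value ran from -1.05 without KO replicate 1, where it passed the criterion, to -0.59 without KO replicate 3 or 4, where it did not. With the GC trend removed the values were -0.76 over 8 libraries, now past the criterion, and -0.84 within days. The gene Timm21 lies inside the span of Fbxo15, introns included, on the other strand. The library kit did not mark strand, so reads from any shared exon bases cannot be told apart. Whether exons of the pair overlap was not tested. Timm21 was at 200.7 ± 27.7 normalized counts in KO and 158.1 ± 45.3 in WT (SD, n = 4), without correction for length, and its mean was the higher one in KO.

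L1td1 encodes an RNA-binding protein that descends from the first reading frame of a LINE-1 retrotransposon and binds Lin28a. It lies at 98726734 to 98738480 of chromosome 4 (mm10, plus strand). It was measured at 7971, 8071, 1834 and 5714 normalized counts over KO replicates 1 to 4 and at 7988, 11878, 3782 and 8038 over WT replicates 1 to 4. Both libraries of day 4 were far below the others, whatever the genotype. Its difference between day 4 and the other libraries, -1.62 on the log2 scale, was at percentile 0.583 among all transcripts, and its transcript has a GC content of 47.8%.

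Over 8 libraries the log2 fold change of L1td1 was -0.46 (SE 0.58, 95% confidence interval -1.82 to 0.90, limma adjusted p = 0.804). The value rested on single libraries: it was -0.040 without KO replicate 3 and -0.031 without WT replicate 2, and -0.90 without WT replicate 3. Within days KO stood at 67.9%, 48.5% and 71.1% of WT on days 3, 4 and 5. Blocking by day gave -0.70 (SE 0.15, limma adjusted p = 0.207). The fit with the clone term and without both libraries of day 4 gave -0.53, with an unadjusted p under 0.05 but short of 1.5-fold. Within days and with the GC trend removed the log2 fold change was -0.62 (SE 0.13, limma adjusted p = 0.221), past the criterion.

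Gdf3 encodes a ligand of the TGF-beta family that acts through the Nodal pathway. The gene is at 122605403 to 122610087 of chromosome 6 (mm10, minus strand). Its values were 1268, 1334, 1241 and 975 normalized counts over KO replicates 1 to 4 and 1841, 1521, 1371 and 1510 over WT replicates 1 to 4. The genotypes did not overlap, but the highest KO and the lowest WT library lay close together, and with the clone correction undone they overlapped over all libraries, but not within either clone.

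The Gdf3 means were 1204 ± 158 in KO and 1561 ± 199 in WT (SD, n = 4), a log2 fold change of -0.39 (SE 0.16, 95% confidence interval -0.76 to -0.02, limma adjusted p = 0.537). This was short of 1.5-fold. KO stood at 87.7% and 90.5% of WT on days 3 and 4 in clone E3 and at 64.5% on day 5 in clone 1. A difference of the genotype effect between the clones was not shown by the interaction term (log2 difference -0.60, SE 0.27, limma adjusted p = 0.9999). Blocking by day gave -0.32 and leaving out KO replicate 4 gave -0.17, and the unadjusted p was over 0.05 in both cases. The same held without KO replicate 1 or 3 or WT replicate 1, 2 or 4.

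Utf1 encodes a chromatin-bound protein that sits at promoters with both active and repressive histone marks, and its enhancer is a classical target of Oct4 and Sox2. It lies at 139943789 to 139945112 of chromosome 7 (mm10, plus strand) and had the highest GC content of the 10 transcripts, 63.5%. It was measured at 2865, 5574, 5371 and 4893 normalized counts over KO replicates 1 to 4 and at 3726, 3681, 3823 and 3343 over WT replicates 1 to 4. WT libraries were close together, whereas KO replicate 1 lay below and the other KO libraries above all of them.

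The means were 4676 ± 1240.5 in KO and 3643 ± 209 in WT (SD, n = 4), and the log2 fold change of Utf1 was 0.32 (SE 0.23, 95% confidence interval -0.23 to 0.87, limma adjusted p = 0.69). On days 3, 4 and 5 KO was at 151.4%, 140.5% and 146.4% of WT. Blocking by day gave 0.55 (SE 0.09, limma adjusted p = 0.202). Its unadjusted p was also under 0.05 with the clone term and without KO replicate 1 (0.52), and over the 6 libraries of days 3, 4 and 5 with a clone term in place of the block (0.55). Of these genes Utf1 was the one whose value moved most with the GC trend: with the trend removed the log2 fold change was 0.15 over 8 libraries and 0.23 within days (SE 0.09, limma adjusted p = 0.322), and neither had an unadjusted p under 0.05. Day 2 had no WT library, so the low value of KO replicate 1 has no partner of its own day.

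**Figure D2:**
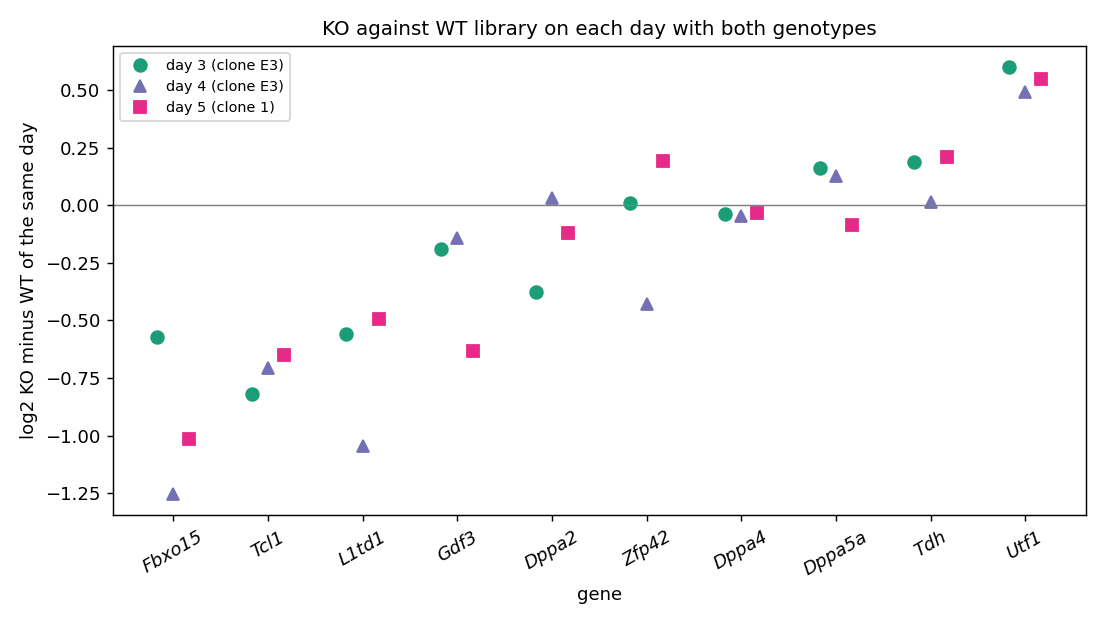
Difference on the log2(normalized count + 1) scale between the KO and the WT library of the same day (y axis) for each gene (x axis), with days 3 and 4 from clone E3 and day 5 from clone 1. Fbxo15, Tcl1, L1td1, Gdf3 and Dppa4 are below 0 on all 3 days, Utf1 and Tdh are above 0 on all 3 days, and Dppa2, Dppa5a and Zfp42 lie on both sides.

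KO was below WT on each of the 3 days for 5 of the 10 genes, Fbxo15, Tcl1, L1td1, Gdf3 and Dppa4, against 25.5% of all transcripts. For Dppa4 these differences were small, with KO at 96.9% to 97.8% of WT.

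The other 5 genes, like Gdf3 and Utf1, passed the fold change criterion in neither fit, and none of the 5 had an unadjusted p under 0.05 in either. Dppa2 and Dppa4 encode partner proteins with a DNA-binding SAP domain that keep promoters with both active and repressive marks free of DNA methylation, and they lie side by side on chromosome 16, 9670 bases apart, at 48303908 to 48319723 and 48283733 to 48294237 (mm10, both plus strand). Dppa2 was measured at 998, 928, 749 and 881 normalized counts over KO replicates 1 to 4 and at 996, 1205, 733 and 958 over WT replicates 1 to 4. The KO libraries lay within the range of the WT libraries, and the lowest value of either was on day 4. The log2 fold change of Dppa2 was -0.11 (95% confidence interval -0.55 to 0.33, limma adjusted p = 0.863), and the sign turned with the GC trend removed (0.02).

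Dppa4 stood at 1896, 1698, 1368 and 1626 normalized counts over KO replicates 1 to 4 and at 1534, 1743, 1412 and 1662 over WT replicates 1 to 4. It too was lowest on day 4 in both genotypes. Its log2 fold change was 0.05 (95% confidence interval -0.29 to 0.39, limma adjusted p = 0.921), so a change of 1.5-fold in either direction lay outside the interval. The sign turned with day as a block, where the value was -0.04.

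Zfp42, whose product is a zinc finger protein related to Yy1 and is lost early as mES cells leave the naive state, lies at 43295063 to 43306980 of chromosome 8 (mm10, minus strand). It was measured at 1423, 1264, 803 and 1242 normalized counts over KO replicates 1 to 4 and at 1136, 1257, 1081 and 1086 over WT replicates 1 to 4. The WT libraries lay within the range of the KO libraries. The log2 fold change was 0.03 (95% confidence interval -0.44 to 0.50, limma adjusted p = 0.967). In the day block it was -0.08.

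Dppa5a encodes a KH-domain protein that binds RNA. It lies at 78367052 to 78368177 of chromosome 9 (mm10, minus strand), and the annotation lists the pseudogenes Dppa5b and Dppa5c on the same chromosome, to which reads of this gene may also match, so its level is uncertain. Its values were 16561, 10909, 21751 and 14582 normalized counts over KO replicates 1 to 4 and 16938, 9751, 19950 and 15500 over WT replicates 1 to 4. Both genotypes were lowest on day 3 and highest on day 4. The log2 fold change was 0.06 (95% confidence interval -0.65 to 0.77, limma adjusted p = 0.956), an interval that includes 1.5-fold changes in either direction. The interval in the day block was -0.22 to 0.35 around a value of 0.07.

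Tdh encodes threonine dehydrogenase, a mitochondrial enzyme through which mES cells break down threonine for glycine and acetyl-CoA. It is at 63492347 to 63509092 of chromosome 14 (mm10, minus strand) and its span overlaps that of the antisense gene Gm17232. Reads from any exon bases that they share cannot be told apart, and whether their exons overlap was not tested. It was measured at 4429, 4261, 5420 and 4888 normalized counts over KO replicates 1 to 4 and at 4615, 3740, 5374 and 4222 over WT replicates 1 to 4. The genotypes overlapped, with the highest value of either on day 4. The log2 fold change of Tdh was 0.09 (95% confidence interval -0.28 to 0.46, limma adjusted p = 0.863), and 1.5-fold changes lay outside the interval.

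**Figure D3:**
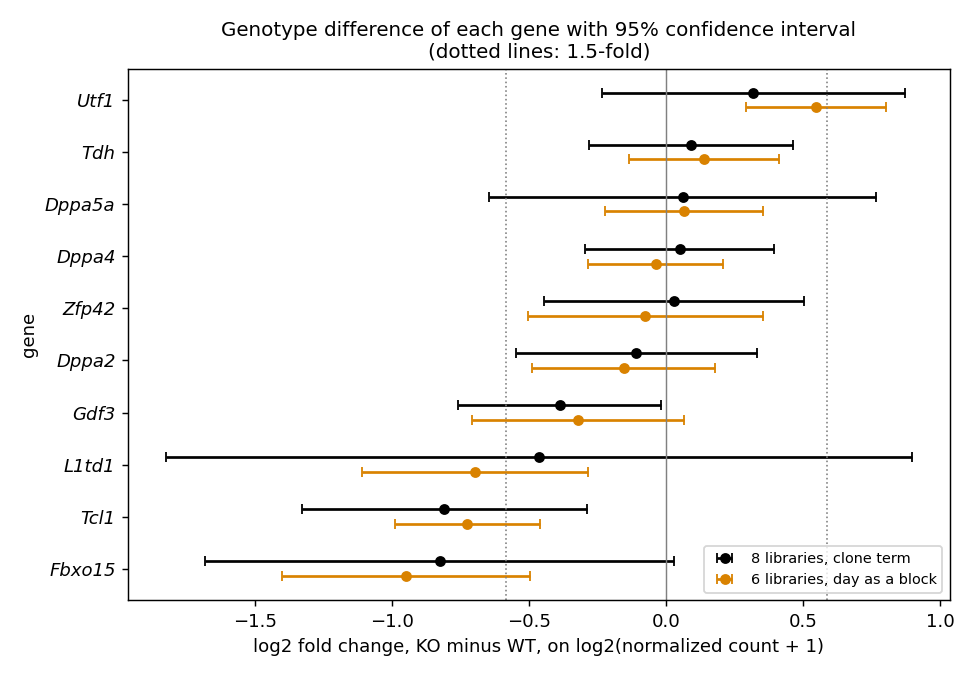
Log2 fold change of KO over WT on the log2(normalized count + 1) scale (x axis) for each gene (y axis) with its 95% confidence interval, from all 8 libraries with a clone term (black) and from the 6 libraries of days 3, 4 and 5 with day as a block (orange), with 1.5-fold marked by dotted lines. The black interval excludes 0 for Tcl1 and Gdf3, and the orange one for Tcl1, Fbxo15, L1td1 and Utf1.

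To compare levels among the 10 genes, normalized counts were divided by the length of the RefSeq transcript in kb. In WT, Dppa5a was by far the highest at 25097 ± 6912 per kb (SD, n = 4), 59.4 times Tcl1, the lowest at 422.8 ± 98.5 per kb. Between them, from high to low, the WT means per kb were 2969 ± 170 for Utf1, 2693 ± 1124 for L1td1, 2386 ± 367 for Tdh, 1661 ± 340 for Fbxo15 and 1074 ± 98.3 for Dppa4. Gdf3 followed at 734.5 ± 93.6, Zfp42 at 643.4 ± 46.3 and Dppa2 at 499.5 ± 99.2 per kb. The ranges of Utf1, L1td1, Tdh and Fbxo15 overlapped from each gene to the next, as did those of Gdf3, Zfp42, Dppa2 and Tcl1. Gaps without overlap lay below Dppa5a, below Fbxo15 and below Dppa4.

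**Figure D4:**
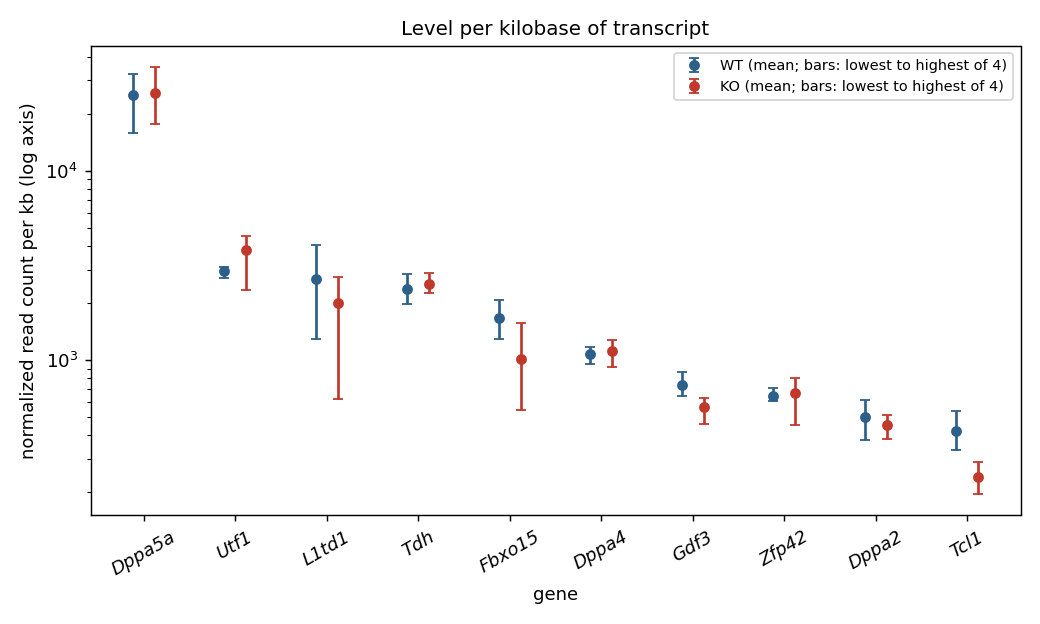
Normalized read count per kilobase of transcript (y axis, log scale) for each gene (x axis), WT in blue and KO in red, with points at the mean and bars from the lowest to the highest of 4 libraries. Dppa5a stands above the other genes in both genotypes, and Tcl1 is the lowest in both, at 422.8 in WT and 241.4 in KO.

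In KO the order at both ends was as in WT, while L1td1 and Tdh, Fbxo15 and Dppa4, and Gdf3 and Zfp42 changed places. The spread between libraries differed widely: the coefficient of variation in WT ran from 5.73% for Utf1 to 41.7% for L1td1.

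The core pluripotency factors around which these genes act were counted alongside. Of 15 measured, 1 was higher in KO past the criterion and 0 were lower, against 238 higher and 338 lower of all 13558 transcripts. The factor was Gbx2, a homeodomain protein downstream of LIF, at 843.4 ± 218 normalized counts in KO and 407.5 ± 190 in WT (SD, n = 4, log2 fold change 1.07, limma adjusted p = 0.486). Blocking by day, 3 of 15 were higher and 0 lower, Gbx2, Klf4 (log2 fold change 0.73) and Klf5 (0.68), the latter both zinc finger factors. In that fit 425 of all 13558 transcripts were higher and 590 lower past the criterion. Without KO replicate 4, and likewise without WT replicate 3, 0 of the 15 had an unadjusted p under 0.05 by limma. With the GC trend removed 0 passed over 8 libraries and 4 within days, with Nr5a2 beside the 3 named. Within days and with the trend removed, 276 of 12853 transcripts were higher and 372 lower past the criterion. The 15 factors had a median log2 fold change of 0.18, whose sign turned without KO replicate 3 (-0.017) or WT replicate 2 (-0.086).

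A further 28 genes known from mES cells had 1 lower and 0 higher past the criterion, against 338 lower and 238 higher of all 13558 transcripts. The gene was Alpl, the alkaline phosphatase that stains mES cell colonies, at 1527 ± 504 in KO and 2810 ± 896 in WT (SD, n = 4, log2 fold change -0.86, limma adjusted p = 0.516). In the day block 2 of 28 were lower, Alpl and Rif1, a regulator of replication timing (log2 fold change -0.998). Over all transcripts 590 of 13558 were lower past the criterion in that block. The median log2 fold change of the 28 was -0.02. Without both libraries of day 4 there were 4 lower past the criterion, against 488 of 13558 transcripts.

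Next, genes that work with single members were counted. Of 11 direct partners 0 passed the criterion. Gcat, the enzyme that takes the product of Tdh on to glycine, had an unadjusted p under 0.05, with a log2 fold change of 0.36 (SE 0.11). Lin28a, the partner of L1td1, had a log2 fold change of -0.42. Of 10 enzymes of glycine cleavage and one-carbon metabolism, which follow on from Tdh, Gcat alone had an unadjusted p under 0.05, and 0 passed the criterion. An unadjusted p under 0.05 was reached by 9.09% of all transcripts.

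Of 12 genes related to the members by family or by name only, 6 were measured and 0 passed the criterion. Khdc3, which encodes a KH-domain protein of the family of Dppa5a, had an unadjusted p under 0.05, as did 9.09% of all transcripts. It was at 845.5 ± 37.7 normalized counts in KO and 606.3 ± 36.1 in WT (SD, n = 4, log2 fold change 0.48, limma adjusted p = 0.416). Dppa3, named like Dppa2, Dppa4 and Dppa5a for its place in the early embryo, stood at 577.3 ± 194 in KO and 649.1 ± 131 in WT (log2 fold change -0.20).

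Dppa2 and Dppa4 are also known to switch on genes of the 2-cell-like state, a rare state of mES cells with transcripts of the 2-cell embryo. Of 10 such genes 5 were measured, and 4 of the 5 were lower in KO past the criterion: Zscan4c, Zscan4d, Gm5662 and Usp17la. Of all transcripts 2.49% passed as lower in KO. On untransformed values 0 of the 5 genes passed, and 0 of the 5 had a mean of at least 50. Their levels were low, with a summed value of 7.97 to 62.0 normalized counts in KO libraries and 96.0 to 170.6 in WT libraries. In KO replicate 4 the value of 4 of the 5 genes was at the floor of 1 that the authors set, and without this library 3 of the 5 passed. Within days 2 of the 5 passed, Zscan4f and Gm5662, and 0 of the 5 with the GC trend removed as well. Over all transcripts 590 of 13558 were lower past the criterion within days. Zscan4 genes are near-identical copies of each other, so that their counts are uncertain one by one and are not separate results.

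Finally, the transcripts with the pattern most like that of Tcl1, the gene with the smallest p, were sought among 11088 transcripts with a mean of at least 50. Over the 8 libraries the highest Pearson correlations of log2 values with Tcl1 were 0.977 for Sash1, 0.976 for Reep1 and 0.974 for Pip5k1b. Their log2 fold changes were -0.84, -0.45 and -0.42. Since the genotype difference of Tcl1 is part of the pattern they were selected on, a difference of the same sign follows from the selection. Sash1 ran from 146.6 to 191.5 normalized counts in KO and from 243.6 to 391.3 in WT, also without overlap.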

How the data were processed

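Per the labels and the study's methods, the authors prepared libraries from SSEA-1 sorted cells with an unstranded kit, made reads with CASAVA 1.8, aligned them with TopHat2 on Bowtie2 2.2.1 to mm10 and counted them per RefSeq transcript. The authors normalized the counts with DESeq2, corrected them for the clone in Partek 6.6, set values under 1 to 1 and dropped weak transcripts, so the deposited values are a signal (DESeq2-scaled read counts shifted by an additive clone correction). The members and the gene lists were chosen with earlier results of these data known. Genes named besides the 10 members and Trim71 are those of a list past the criterion or, with none, those with an unadjusted p under 0.05, at most 5 by p. Lin28a, Dppa3, Timm21, Foxj1, Dnmt3b and the ES cell factors were added for context after their values were seen. One gene that the rule selects is not reported here.

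The genotype effect was estimated on log2(value + 1) beside a clone term, using limma 3.58.1 (R 4.3.3), and p-values were adjusted over all 13558 transcripts. The added 1 shrinks the fold changes of low transcripts, but values at the floor in single libraries can enlarge them. For the 5 measured genes of the 2-cell-like state the median log2 fold change was -1.66 on this scale and -1.32 on untransformed values. On 13346 simulated transcripts with 100 changed by 2 and 100 changed by 1 on the log2 scale, the log2(value + 1) fit called 98 and 53 of them at an adjusted p under 0.05, beside 12 of 13146 unchanged ones. The fold change criterion called 100 and 97 of them, beside 406 of the unchanged ones. The simulated reads had the same dispersion throughout and no GC trend, day effect or clone difference. The rates need not hold for the measured libraries, where Trim71 itself, at a log2 fold change of -2.39, had a limma adjusted p of 0.294.

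Where no value was at the floor (13350 transcripts), a fitted clone effect came out at 0 to the printed precision. Undoing it gave unique whole reads for 13530 transcripts (99.8%), from which 100% of their deposited values came back. The reads, 7516612 to 27745282 per library, cover the deposited transcripts only. They were used for limma's voom as an alternative, and on simulated data 98.2% of 13467 transcripts were recovered exactly. No per-sample column was left unused.

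The labels give the day without saying what it counts, and days 3, 4 and 5 pair libraries that also share a clone. With the clone correction undone, deviations from the group means correlated at 0.56, 0.65 and 0.50 within these days, against a median of -0.19 over 13 pairs of different days. In deposited values they correlated at 0.42, 0.54 and -0.23. Alternatives were another pseudocount (10), a mean of at least 50, no clone term, untransformed values, day as a block, a trended prior, the clone correction undone, voom, upper quartile scaling, clone E3 alone and each library left out. A fit without both day 4 libraries, one of the 6 paired libraries without the block one with the block and the correction undone, and fits with the GC trend of each library removed (loess, span 0.3, 12853 transcripts with a GC content) were added after seeing the data. Annotation was from GENCODE and RefSeq for GRCm38, the build of mm10. Python 3.11.15, numpy 2.4.6, pandas 2.3.3, numba 0.67.0 and matplotlib 3.10.9 served the other steps.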

Additional observations from a re-analysis of the deposited data

How the results depend on the processing

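The number of the 10 genes past the fold change criterion, 1 with all libraries, was 2 with a pseudocount of 10, a mean of at least 50, no clone term, a trended prior, voom, upper quartile scaling, without both day 4 libraries, over the 6 paired libraries without the block and with the GC trend removed, in each case with Fbxo15 beside Tcl1. In that order, the transcripts past it were 458 of 13558, 315 of 11089, 711 of 13558, 515 of 13558, 546 of 13346 and 587 of 13558. Without both day 4 libraries, over the 6 paired libraries and with the GC trend removed they were 931 of 13558, 537 of 13558 and 574 of 12853. With all libraries they were 576 of 13558. The number of the 10 genes was 3 in the 4 fits with the replicate block by day (on deposited values, under voom, after undoing the clone correction and with the GC trend removed), and 0 to 2 with single libraries left out, the 0 being without KO replicate 4. The fits with the block called 1015 of 13558, 1052 of 13346, 986 of 13346 and 648 of 12853 transcripts in that order. With single libraries left out, 260 to 835 of 13558 transcripts passed. Genes at an unadjusted p under 0.05, 2 with all libraries, came to 4 in the day block on deposited values, 5 in the same under voom, 4 in the same on uncorrected values, 4 without both day 4 libraries, 1 in clone E3 alone and 0 to 3 with single libraries left out. Over all transcripts, 1232 of 13558 stood there with all libraries. In the same order as above, they came to 2601 of 13558, 3178 of 13346, 2532 of 13346 and 2160 of 13558. In clone E3 alone they were 376 of 13558, and 442 to 1444 with single libraries left out. None of the 10 had an adjusted p under 0.05 in any of the 25 fits. A genotype effect that differed between the clones, tested under 10 of these settings, had an adjusted p under 0.05 for none of the 10 genes, with too few libraries a clone to show that the effects were alike. Over all transcripts voom with the block called 2 at an adjusted p under 0.05, Trim71 and Foxj1, and the other fits 0.

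Transcripts past the criterion, 576 with all libraries, came to 315 with a mean of at least 50, 274 untransformed, 1015 in the day block on deposited values, 1052 in the same under voom, 986 in the same on uncorrected values, 278 in clone E3 alone, 931 without both day 4 libraries and 260 to 835 with single libraries left out, the 260 being without KO replicate 4. Core factors past it, 1 with all libraries, were 3 in the day block on deposited values, under voom and on uncorrected values, 4 in it with the GC trend removed, 0 with that trend removed and no block, 0 in clone E3, 2 over the 6 paired libraries without the block and 0 to 3 with single libraries left out. Other ES cell genes, also 1, were 0 untransformed, in clone E3 and over the 6 paired libraries, 2 in the day block on deposited values, under voom and on uncorrected values, 3 in it with the GC trend removed, 2 with that trend removed and no block, 4 without both day 4 libraries and 0 to 3 with single libraries left out. The cause of these moves was not tested.

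Tcl1, Fbxo15, Gdf3 and L1td1 were lower and Utf1 higher in KO in all 25 fits, but with single libraries left out L1td1 ran from -0.905 to -0.031, close to no difference at its upper end, and Fbxo15 from -1.05 to -0.588. Signs turned for genes without a call: Dppa4 was -0.038 on the log2 scale with the block and over the 6 paired libraries and -0.039 in the same under voom and on uncorrected values. Dppa2 was 0.016 with the GC trend removed and 0.042 with the block as well. Zfp42 was -0.076 with the block and over the 6 paired libraries, -0.071 under voom with the block, -0.059 with it after undoing the correction and -0.045 in clone E3. With single libraries left out, Dppa2 ran from -0.31 to 0.074, Dppa4 from -0.035 to 0.13, Dppa5a from -0.25 to 0.30, Zfp42 from -0.062 to 0.19 and Tdh from -0.037 to 0.24. With at least 174 reads for each gene in each library, counting error was small, and the 4 libraries a genotype from 2 clones limit the precision.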

Other observations

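Markers of other cell types that mES cell cultures can hold were counted as well, and their levels ranged widely. Of 7 primitive endoderm markers 0 passed the criterion, 5 had the higher value in KO and 2 the lower. The summed level of the 7 was 278.8 to 601.6 normalized counts in KO libraries and 92.6 to 473.5 in WT libraries. The lowest WT sum was that of WT replicate 1. The median log2 fold change of the 7, 1.32 with all libraries, was 0.016 without KO replicate 4 and 0.53 without WT replicate 1. With day as a block 2 of the 7 were lower past the criterion, Dab2 (log2 fold change -0.75) and Pdgfra (-0.68). The same held for 590 of 13558 transcripts. Of 4 trophectoderm markers 3 were measured, with sums of 313.7 to 617.6 in KO and 81.6 to 401.1 in WT, and 0 passed. The lowest WT sum was again that of WT replicate 1, where Cdx2 was at the floor of 1. The median log2 fold change of the 3, 0.98 with all libraries, was -0.097 without KO replicate 4 and 0.48 without WT replicate 1. In the day block Cdx2 was higher in KO past the criterion (log2 fold change 0.91), as were 425 of 13558 transcripts. Their part in the values of the 10 marker genes was not tested.

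Of 5 primed epiblast markers 4 were measured and 0 had an unadjusted p under 0.05, with sums of 3046 to 5483 in KO and 1921 to 6356 in WT, nearly all of it Dnmt3b, a DNA methyltransferase that mES cells also express. Of 5 mesoderm markers 2 were measured, and Eomes had an unadjusted p under 0.05 (log2 fold change 0.51), at sums of 93.3 to 131.2 in KO and 66.4 to 107.9 in WT. Of 5 neural markers 4 were measured and Nes had an unadjusted p under 0.05 (log2 fold change -0.50), at sums of 711.5 to 982.8 in KO and 850.4 to 1504.5 in WT. Of 6 fibroblast markers 3 were measured and 0 had an unadjusted p under 0.05, at sums of 89.5 to 170.0 in KO and 67.9 to 139.1 in WT. Among all transcripts 9.09% had an unadjusted p under 0.05.

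All 4 germ cell markers were measured, at sums of 644.7 to 1183.5 in KO and 879.8 to 1245.1 in WT. Nanos3, an RNA-binding protein of primordial germ cells, was lower in KO past the criterion, at 6.35 ± 3.33 against 16.5 ± 1.40 normalized counts (SD, n = 4, log2 fold change -1.39, limma adjusted p = 0.446), a level close to the floor of the table. Of all transcripts 2.49% passed as lower in KO.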
